A study of Mus musculus with 12 samples.

Results

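The genes described here are 9 that make, break down or sense prostaglandins: the synthases Ptgs1, Ptgs2, Ptges, Ptges2 and Ptgds, the degrading enzyme Hpgd and the prostaglandin E2 receptors Ptger2, Ptger3 and Ptger4. They were taken by name, as the probe sets whose only listed symbol is one of them. Of the 9 genes, 8 were found, each with 1 probe set, among 19938 genes with a probe set of their own. Ptgs1 was not analysed here. The study measured them on 12 whole-transcript microarrays of cells sorted from mouse dorsal skin, with 3 arrays in each of 4 groups. In the first set, bulge cells of the hair follicle were taken at 18 to 19 days of age from Per1-Venus mice, in which a fluorescent protein reports the clock gene Per1. Sorting took cells with bright alpha6 integrin that carried CD34, and each sample pooled roughly 20 mice. Venus was bright in the 3 clock-positive samples and dim in the 3 clock-negative ones; 1 label of the clock-negative samples gives the Venus-high gate, and the titles and the series design were followed instead. In the second set, basal cells of the interfollicular epidermis (IFE) came from mice 1 year old, 3 samples with an epidermal knockout (KO) of the clock activator Bmal1 and 3 from wild-type (WT) mice, with 5 mice per sample. Mice of both sets were untreated. What drives the epidermal deletion is not given in the sources used here, and sex, strain and time of day were not analysed here.

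Prostaglandins are short-lived lipid signals. Phospholipases release arachidonic acid from membranes, the cyclooxygenases PTGS1 and PTGS2 turn it into prostaglandin H2, and terminal synthases such as PTGES, PTGES2 and PTGDS convert that into prostaglandin E2 or D2. HPGD oxidizes prostaglandin E2 and so ends its action. Prostaglandin E2 acts through G protein-coupled receptors, of which PTGER2 and PTGER4 raise cyclic AMP and PTGER3 lowers it. In skin these signals are known for their part in inflammation, wound repair and hair growth.

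The clock activator pair of BMAL1 and CLOCK binds the E-box, so the promoters of the genes were searched for its letters. Promoters of RefSeq (GRCm38.p6, 250 bases before to 50 after the annotated start) were found for 9 of the 9 genes. Both strands were searched for the E-box CACGTG, for AGGTCA (an element that nuclear receptors bind) and for TGACG (the core of a cyclic AMP response element). CACGTG stands in 2 of the 9, those of Ptgs2 and Ptges2, and in 7.15% of all 32851 promoters of this length. TGACG stands in 1 of the 9, that of Ptgs2, and in 20.8% of all, and AGGTCA in 0 of the 9 and in 16.3% of all. In the Ptgs2 window TGACG lies on the opposite strand, read here from base 14 after the annotated start, and it overlaps the E-box that begins at base 17. In the Ptges2 window the E-box begins at base -77. The windows are chr1:150099781-150100080 on the plus strand for Ptgs2, chr2:32395640-32395939 on the plus strand for Ptges2 and chr8:56294302-56294601 on the plus strand for Hpgd, which is shown because that gene changed most. Capitals mark the motifs, and none of the 3 motifs is in the Hpgd window.
Ptgs2: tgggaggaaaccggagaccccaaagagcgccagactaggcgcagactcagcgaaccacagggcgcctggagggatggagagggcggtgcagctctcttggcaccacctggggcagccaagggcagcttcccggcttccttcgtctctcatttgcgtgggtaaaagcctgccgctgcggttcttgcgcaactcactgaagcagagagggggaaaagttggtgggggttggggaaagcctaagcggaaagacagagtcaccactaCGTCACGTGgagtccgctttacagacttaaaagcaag
Ptges2: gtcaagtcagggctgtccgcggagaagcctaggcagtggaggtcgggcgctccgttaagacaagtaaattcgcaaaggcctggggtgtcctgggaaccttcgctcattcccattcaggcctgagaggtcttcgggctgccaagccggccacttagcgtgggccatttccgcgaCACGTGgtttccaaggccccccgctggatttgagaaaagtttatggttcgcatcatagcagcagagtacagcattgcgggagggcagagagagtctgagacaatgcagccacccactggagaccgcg
Hpgd: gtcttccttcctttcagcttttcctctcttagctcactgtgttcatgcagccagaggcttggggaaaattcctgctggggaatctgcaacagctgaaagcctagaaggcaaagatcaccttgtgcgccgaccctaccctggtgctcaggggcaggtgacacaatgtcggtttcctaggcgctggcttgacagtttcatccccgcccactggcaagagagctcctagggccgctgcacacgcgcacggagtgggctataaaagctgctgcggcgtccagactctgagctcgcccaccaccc

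Values are log2 intensities, and changes were taken only between arrays of a set and only for the same gene; across genes, mean values served only to set the filter on dim genes and to say how dim a gene was. The sets carry values for different probe sets and appear to have been normalized apart. The 30% of genes with the lowest mean in a comparison were left out as dim, and a gene was called at an adjusted p under 0.05 in limma. In the bulge set 63.5% of 13956 genes were called, with a median change of 0.15 over all genes tested and of -0.21 over the 5981 dim ones. In the epidermis set 0.193% of 13957 genes were called, 27 genes, against 1111 at an unadjusted p under 0.05. Ptger2 and Ptger3 lay below the filter in both sets, and their values come from the fit without it. Basal keratinocyte markers such as Krt5 and Krt14 averaged 11.49 to 11.52 in clock-positive arrays and 11.37 to 11.43 in clock-negative arrays, and 12.82 to 12.85 in KO arrays and 12.86 to 12.90 in WT arrays. These values have no zero, so no marker can be called absent. The targeted gene Bmal1, listed as Arntl, read 9.85, 9.60 and 9.55 in KO arrays and 9.27, 9.47 and 9.34 in WT arrays (0.30 ± 0.12, adjusted p = 0.530), so its probe set was not lower in the libraries labelled KO. Whether it lies in the deleted part is not given in the sources used here. Nr1d1, a direct target of BMAL1, did separate the labels, at 8.63, 8.39 and 8.44 in KO arrays and 12.28, 12.52 and 12.60 in WT arrays (-3.98 ± 0.12, adjusted p = 1.08e-05). Per1, the gene of the reporter, was higher in clock-positive cells by 0.51 ± 0.07 (adjusted p = 1.95e-04). Among other clock genes and outputs Bmal1, Dbp, Tef and Ciart were called higher there, at 0.16, 0.28, 0.36 and 0.36. Per2, Per3, Nr1d1 and Nr1d2 were not called, at 0.12, -0.06, 0.08 and 0.09. In that set 45.2% of all genes tested were called higher.

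In bulge cells Hpgd was the one prostaglandin gene with a large change. It read 9.42, 9.29 and 9.39 in clock-positive arrays 1 to 3, against 8.0, 7.58 and 7.83 in clock-negative arrays 1 to 3. Each clock-positive array was above each clock-negative one by more than 1 log2 unit, and the clock-positive arrays lay closer together (SD 0.07 against 0.21, n = 3 each). The clock-positive level of Hpgd was 2.95-fold higher (log2 change of 1.56 ± 0.10 SE, 95% interval 1.34 to 1.78, adjusted p = 1.42e-06). Of the 13956 genes tested 0.172% had a larger change in either direction, and by size of rise Hpgd ranked 11. The rise was 1.35 after quantile normalization and 1.31 after cyclic loess, and 1.45 to 1.66 without any 1 array. Since RNA of sorted pools was measured, more cells that express a gene and more RNA per cell cannot be told apart.

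**Figure D1:**
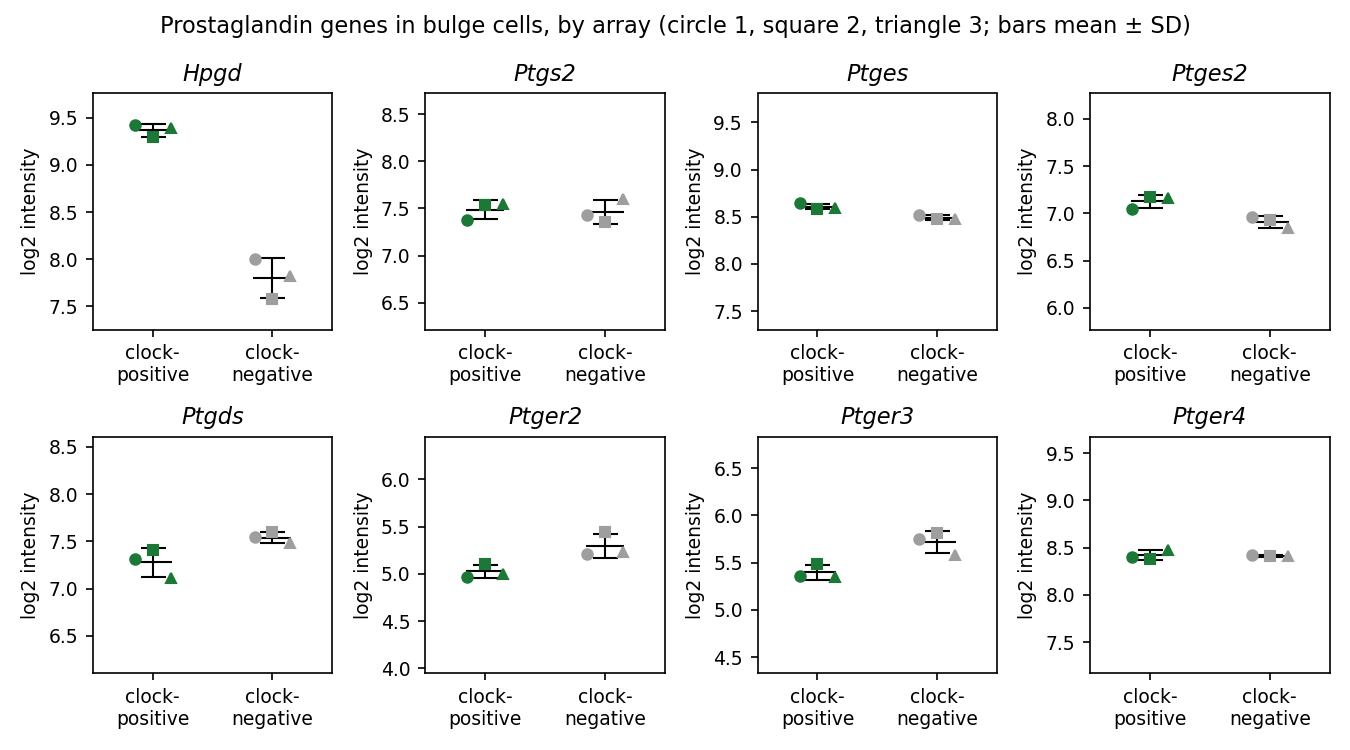
Log2 intensity of the 8 measured genes in clock-positive (green, left) and clock-negative (grey, right) bulge arrays; symbols are arrays 1 to 3, bars the mean ± SD, and each panel spans at least 2.5 log2 units. Hpgd parts the groups by 1.56 log2 units, while Ptgs2 and Ptger4 overlap.

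Bulge stem cell markers rose beside Hpgd. Of the 11 listed 11 rose and 0 fell, among them Krt24, a keratin, and Cd34, which the sort also used, and their mean level was 10.29 to 10.32 in clock-positive arrays and 9.26 to 9.36 in clock-negative arrays. T cell markers went the other way. Of 7 tested 0 rose and 7 fell, with mean levels of 7.23 to 7.27 in clock-positive arrays and 8.19 to 8.33 in clock-negative arrays. Of 6 endothelial markers 6 rose and 0 fell, with mean levels of 8.47 to 8.50 in clock-positive arrays and 8.03 to 8.12 in clock-negative arrays. The part of these cell types in the Hpgd result was not tested.

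The synthases moved little between the bulge sorts. Ptgs2, the inducible cyclooxygenase, read 7.38, 7.54 and 7.55 in clock-positive arrays and 7.43, 7.35 and 7.60 in clock-negative arrays. The groups overlapped, and the change was 0.03 ± 0.08 with an interval of -0.15 to 0.20 (adjusted p = 0.774). Quantile normalization (-0.07) and cyclic loess (-0.05) turned its sign. Ptges, the inducible prostaglandin E synthase, read 8.64, 8.59 and 8.59 in clock-positive arrays and 8.52, 8.48 and 8.48 in clock-negative arrays. These groups did not overlap, yet the change was 0.12 ± 0.06 (adjusted p = 0.108), and it turned to -0.14 under both quantile normalization and cyclic loess.

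Ptges2, a membrane-associated prostaglandin E synthase, rose slightly. It read 7.05, 7.17 and 7.16 in clock-positive arrays and 6.96, 6.93 and 6.84 in clock-negative arrays, a change of 0.22 ± 0.07 (adjusted p = 0.0160). The call was lost without clock-positive array 2 (adjusted p = 0.0650), clock-positive array 3 (0.0623) or clock-negative array 3 (0.0676), and with the spread taken from all 12 arrays (0.192). The median change of all genes tested was 0.15, and 56.2% of genes had a larger change than Ptges2. Ptgds, the lipocalin-type prostaglandin D synthase, fell. It read 7.31, 7.41 and 7.11 in clock-positive arrays and 7.54, 7.59 and 7.48 in clock-negative arrays, with no overlap. The change was -0.26 ± 0.08 (adjusted p = 0.0170), and it missed the threshold without clock-positive array 3 (-0.18, adjusted p = 0.0798) or with the spread of all 12 arrays (adjusted p = 0.0620).

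Most of the called markers of several other cell types fell, as Ptgds did, while some rose. Of all genes tested in this set 18.3% fell and 45.2% rose, and dim genes had a median change of -0.21. Of 6 dermal fibroblast markers tested 4 fell and 1, Col1a1, rose, with mean levels over the 8 listed of 6.62 to 6.68 in clock-positive arrays and 6.67 to 6.80 in clock-negative arrays, which overlap. Of 5 melanocyte markers tested 4 fell and 1, Mitf, rose, with mean levels over the 7 listed of 6.69 to 6.76 in clock-positive arrays and 6.84 to 6.94 in clock-negative arrays. Of 8 Langerhans and myeloid markers tested 5 fell and 3, Fcgr3, C1qc and Cd68, rose. Mean levels over the 10 listed were 7.28 to 7.30 in clock-positive arrays and 7.48 to 7.50 in clock-negative arrays. Of 3 mast cell markers tested 2, Kit and Tpsb2, fell and 0 rose, with mean levels over the 7 listed of 5.63 in each clock-positive array and 5.83 to 5.93 in clock-negative arrays. T cell markers fell too, as given above. The part of these cell types in the Ptgds result was not tested.

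Of the receptors, Ptger4, which raises cyclic AMP, was not called in the deposited values. It read 8.40, 8.37 and 8.48 in clock-positive arrays and 8.42, 8.41 and 8.41 in clock-negative arrays, a change of 0.01 ± 0.06 (interval -0.13 to 0.14, adjusted p = 0.943). After quantile normalization it was called lower (-0.25, adjusted p = 0.00886), and likewise after cyclic loess (-0.24, adjusted p = 0.00869). Ptger2 and Ptger3 were dim, with mean levels above those of only 11.2% and 16.6% of genes. Ptger2 read 4.97, 5.10 and 5.00 in clock-positive arrays and 5.21, 5.44 and 5.23 in clock-negative arrays. Ptger3 read 5.36, 5.49 and 5.35 in clock-positive arrays and 5.75, 5.82 and 5.58 in clock-negative arrays. Neither gene's groups overlapped, and with no filter on dim genes, where 59.4% of all genes were called, both were called lower, Ptger2 at -0.27 ± 0.08 (adjusted p = 0.0147) and Ptger3 at -0.32 ± 0.08 (adjusted p = 0.00666). Dim genes had a median change of -0.21 in this set, and neither call held without the filter after quantile normalization (-0.03 and -0.08, adjusted p = 0.760 and 0.399) or cyclic loess (-0.06 and -0.09, adjusted p = 0.517 and 0.346).

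Across the 6 members tested in the bulge set 2 rose and 1 fell, beside 45.2% and 18.3% of all genes tested. Their median change was 0.07, below the 0.15 of all genes. Without the filter 2 of the 8 measured were called higher and 3 lower, beside 31.5% and 27.9% of all genes. With dim genes included, 3 of the 8 were higher without overlap between the groups and 3 lower, where 35.9% and 30.5% of all genes were. These shares are near those of all genes, so the counts are no result about the prostaglandin genes.

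The wider eicosanoid pathway was covered by a list of 48 other genes, of which 45 were measured and 38 passed the filter in the bulge set. Of these 10 rose and 12 fell, with a median change of 0.01. Of all genes tested in that set 45.2% rose and 18.3% fell, with a median change of 0.15. Among 12 phospholipases and related lipases 1 rose and 5 fell, among 5 other prostanoid synthases 2 rose and 1 fell, and among 5 genes of transport and breakdown 1 rose, Ptgr2, a prostaglandin reductase that acts after HPGD, at 0.41 ± 0.10 (adjusted p = 0.00604). Ptgr2 missed the threshold after quantile normalization (0.30, adjusted p = 0.0874). The prostaglandin transporter Slco2a1, which takes prostaglandins into the cell ahead of their breakdown, was at 0.01 ± 0.08 (adjusted p = 0.928). Of 3 other prostanoid receptors tested 1 rose and 1 fell, and of 13 genes of the lipoxygenase and leukotriene branch 5 rose and 5 fell. Under quantile normalization 4 of the list were called higher and 12 lower, and under cyclic loess 5 and 13. Calls over all 13956 genes changed too, from 6311 higher and 2555 lower. They were 2639 and 2723 under quantile normalization, and 2862 and 2816 under cyclic loess.

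Lipoxygenases were among the called genes of that list with the smallest p in both directions. Alox12, the platelet-type lipoxygenase that mouse epidermis also makes, read 9.23, 9.03 and 9.16 in clock-positive arrays and 8.72, 8.48 and 8.63 in clock-negative arrays, 1.45-fold higher (0.53 ± 0.08, adjusted p = 4.08e-04). Lta4h, which makes leukotriene B4, rose by 0.43 ± 0.08, and Ephx2, the soluble epoxide hydrolase, by 0.42 ± 0.09. These 3 rises kept their call under median centring, quantile normalization and cyclic loess, but were as low as 0.27 for Alox12 and 0.20 for Lta4h, while that of Ephx2 was 0.41 to 0.58. Pla2g4a, the cytosolic phospholipase A2 that supplies the cyclooxygenases, read 9.04, 9.03 and 8.94 in clock-positive arrays and 8.71, 8.48 and 8.65 in clock-negative arrays. Its change of 0.39 ± 0.07 (adjusted p = 0.00143) was 0.13 after quantile normalization and after cyclic loess, where it missed the threshold (adjusted p = 0.0953 and 0.0920). In the other direction Alox12b and Aloxe3, the lipoxygenase pair that builds the skin barrier, were at -0.59 ± 0.08 and -0.49 ± 0.07, the secreted phospholipase Pla2g5 at -0.55 ± 0.07 and the prostacyclin synthase Ptgis at -0.42 ± 0.07. The 4 falls kept their call under the same 3 scalings, while Aloxe3 missed it with the spread of all 12 arrays (adjusted p = 0.0560). Of 3 interfollicular markers tested 1 fell, Lor, which encodes the cornified envelope protein loricrin, at -1.17 ± 0.06, while Krt1 was at -0.07 (adjusted p = 0.320) and Krt10 at -0.05 (adjusted p = 0.540). The mean of the 3 was 11.89 to 11.95 in clock-positive arrays and 12.31 to 12.36 in clock-negative arrays. Their part in the falls of Alox12b and Aloxe3 was not tested.

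In basal epidermis of KO mice 0 of the 6 members tested were called in limma, beside 0.193% of all genes (0.0788% higher and 0.115% lower), and 2 of them, Hpgd and Ptgs2, had an unadjusted p under 0.05. With no filter on dim genes 0 of the 8 measured were called, beside 0.0802% of all genes (0.0251% higher and 0.0552% lower). Ptgs2 read 9.89, 9.87 and 9.83 in KO arrays 1 to 3, against 9.07, 9.41 and 9.34 in WT arrays 1 to 3. The KO arrays lay within an SD of 0.03 and all were above the WT arrays, which spread by an SD of 0.18. The KO level was 1.51-fold higher (0.59 ± 0.12, interval 0.32 to 0.86, unadjusted p = 9.42e-04, adjusted p = 0.141), and 1.98% of genes had a larger change. The adjusted p was 0.0365 after median centring, 0.0478 after quantile normalization, 0.0506 after cyclic loess and 0.00651 with the spread of all 12 arrays, and 0.119 to 0.548 without any 1 array. More genes were called in those fits, against 27 with the main settings. The counts were 82 after median centring, 91 after quantile normalization, 87 after cyclic loess and 407 with the spread of all 12 arrays.

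Hpgd in the epidermis read 10.25, 9.79 and 9.85 in KO arrays, against 9.24, 9.30 and 9.73 in WT arrays. The groups did not overlap, but WT array 3 came close to KO array 2. The KO level was 1.46-fold higher (0.55 ± 0.17, interval 0.14 to 0.95, adjusted p = 0.40), and 2.46% of genes had a larger change. It was not called under any of the other scalings (adjusted p = 0.102 to 0.182) or without any 1 array (0.316 to 0.974).

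**Figure D2:**
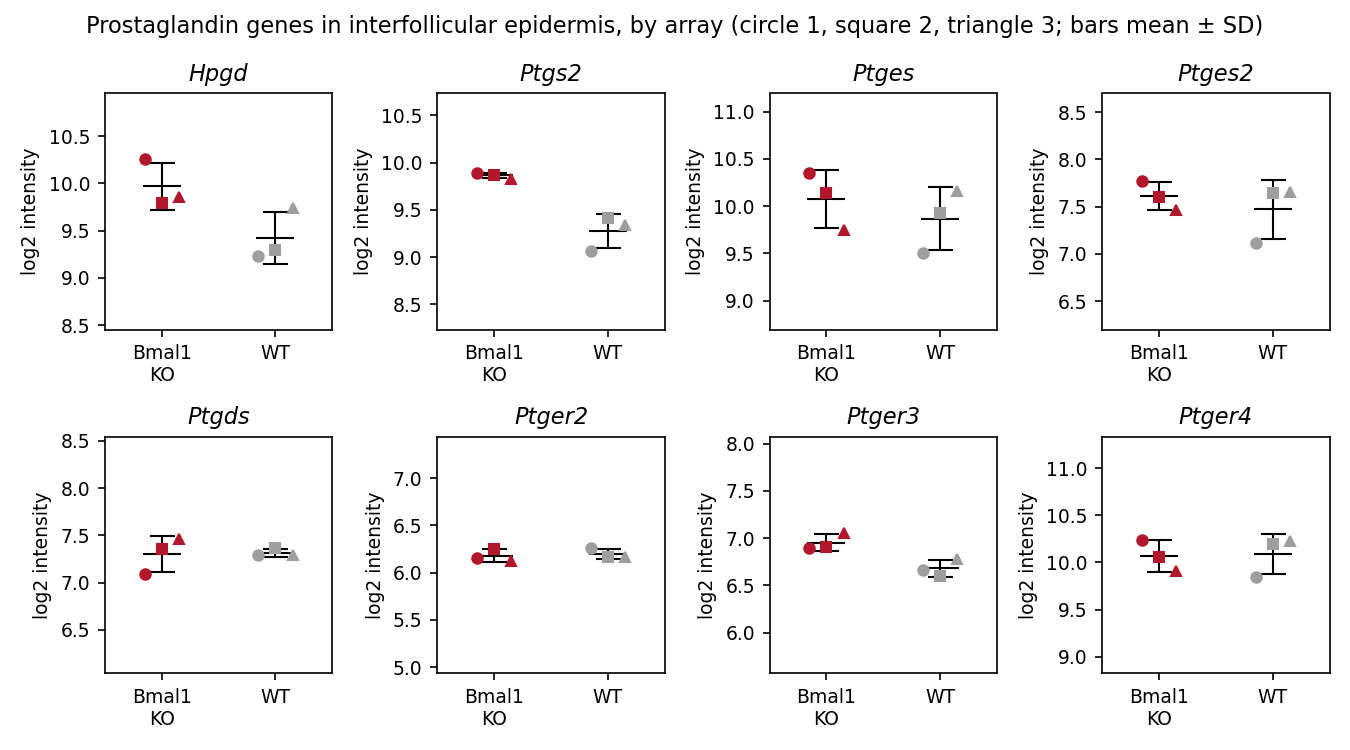
Log2 intensity of the 8 measured genes in Bmal1 KO (red, left) and WT (grey, right) epidermis arrays; symbols are arrays 1 to 3, bars the mean ± SD, and each panel spans at least 2.5 log2 units. Hpgd, Ptgs2 and Ptger3 are higher in all KO arrays than in any WT array, and the other members overlap.

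The prostaglandin E synthases overlapped between the genotypes. Ptges read 10.35, 10.13 and 9.74 in KO arrays and 9.50, 9.93 and 10.16 in WT arrays (0.21 ± 0.20, adjusted p = 0.927). Ptges2 read 7.77, 7.60 and 7.47 in KO arrays and 7.11, 7.65 and 7.66 in WT arrays (0.14 ± 0.17, adjusted p = 0.943). The intervals of these differences were -0.26 to 0.68 and -0.25 to 0.53, and that of Ptges reaches past the change measured for Ptgs2. Ptgds read 7.09, 7.35 and 7.46 in KO arrays and 7.29, 7.36 and 7.30 in WT arrays, a change of -0.01 ± 0.12 (interval -0.29 to 0.26) that turned positive after median centring, quantile normalization and cyclic loess.

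The receptors gave one separation. Ptger3, dim in this set too, read 6.89, 6.90 and 7.06 in KO arrays and 6.66, 6.60 and 6.78 in WT arrays, without overlap. The change was 0.27 ± 0.10 with no filter on dim genes (adjusted p = 0.568). Ptger4 read 10.24, 10.06 and 9.91 in KO arrays and 9.85, 10.20 and 10.23 in WT arrays (-0.03 ± 0.14, interval -0.35 to 0.30), with a sign that turned after median centring. Ptger2 read 6.15, 6.26 and 6.13 in KO arrays and 6.26, 6.16 and 6.17 in WT arrays, a change of -0.02 ± 0.09 that also turned after median centring. In all, 3 of the 8 measured members were higher in the KO without overlap and 0 lower, where 4.33% and 7.33% of all genes were.

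**Figure D3:**
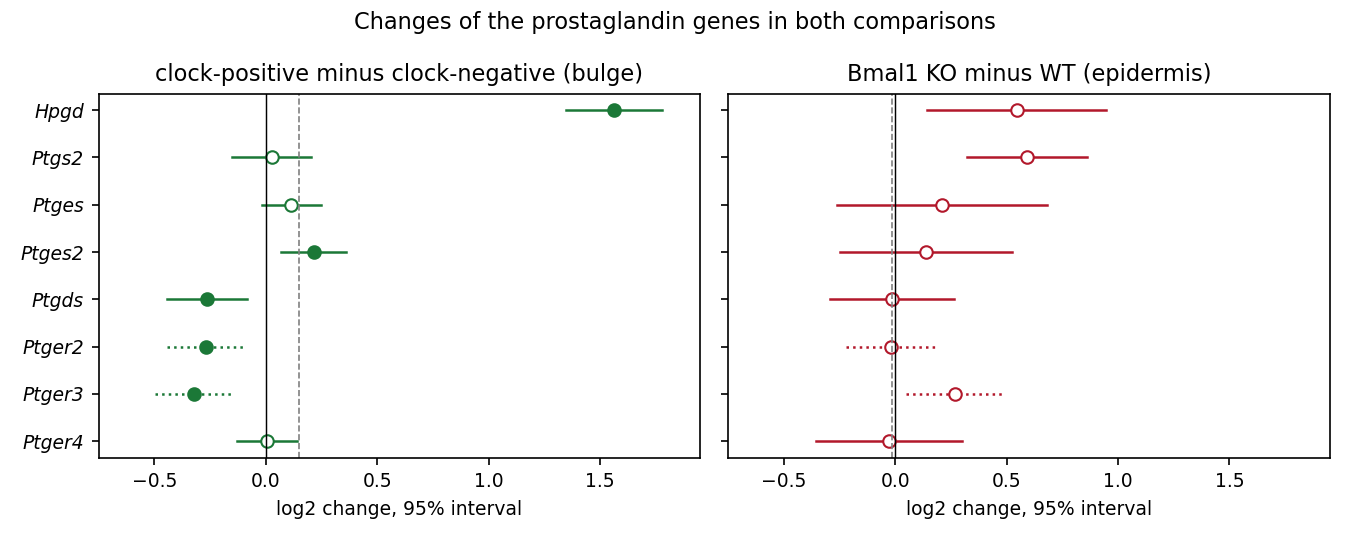
Log2 change with its 95% interval for each measured gene, clock-positive minus clock-negative in the bulge (left) and Bmal1 KO minus WT in the epidermis (right). Filled points have an adjusted p under 0.05, dotted intervals belong to dim genes fitted without the filter, and the dashed line is the median of all genes tested (0.15 and -0.01). Hpgd lies far right in the bulge, and Hpgd and Ptgs2 lie right of 0 in the epidermis without a call.

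Array 1 of each genotype lay at the ends for most members. For 5 of the 8 genes, Hpgd, Ptgs2, Ptges, Ptges2 and Ptger4, WT array 1 was the lowest and KO array 1 the highest of the 6 arrays, which held for 15.7% of all genes measured and 21.9% of those tested. With both arrays left out, a choice made after seeing the values, the change was 0.48 for Ptgs2 (adjusted p = 0.0256) and 0.31 for Hpgd (adjusted p = 0.190), while Ptges and Ptges2 turned to -0.11 and -0.12. Leaving out 1 low WT array and 1 high KO array lowers the change of every such gene by construction, and with 2 arrays per genotype 1343 genes were called.

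**Figure D4:**
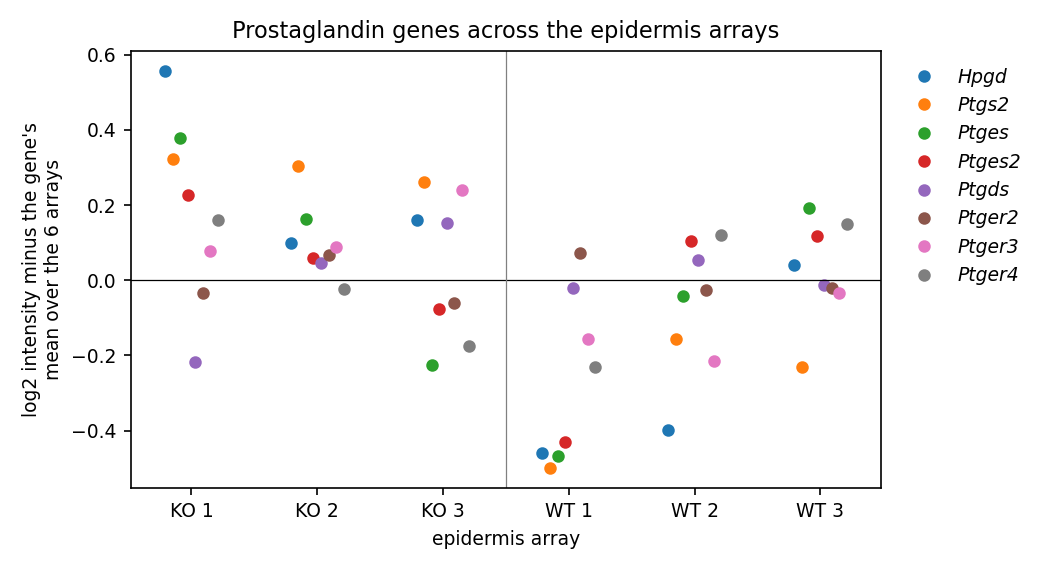
Each measured gene's log2 intensity minus its own mean over the 6 epidermis arrays, KO arrays left and WT arrays right. Ptgs2 is above its mean in all 3 KO arrays and below it in all 3 WT arrays, and in WT array 1 Hpgd, Ptgs2, Ptges and Ptges2 lie together at the low end.

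Of 40 other pathway genes tested in the epidermis 0 were called higher and 0 lower in limma, with a median change of -0.06 beside -0.01 for all genes. Without WT array 1, 3 were called lower: Aloxe3 (-1.41, adjusted p = 0.0212), Alox12 (-0.95, adjusted p = 0.0465) and Hpgds (-1.13, adjusted p = 0.0419). Over all 13957 genes that fit called 98, against 27 with all arrays, and more than leaving out any other 1 array did. With all arrays their changes were -1.16 ± 0.25, -0.72 ± 0.21 and -0.88 ± 0.24 (adjusted p = 0.176, 0.350 and 0.297). Hpgds, the haematopoietic prostaglandin D synthase, read 10.12, 10.14 and 9.54 in KO arrays and 10.32, 11.08 and 11.04 in WT arrays. Aloxe3 read 7.37, 7.40 and 6.77 in KO arrays and 7.84, 8.53 and 8.66 in WT arrays. Alox12 read 7.61, 7.09 and 7.27 in KO arrays and 7.58, 8.25 and 8.29 in WT arrays, which overlap. In these 3 genes WT array 1 was the WT array nearest the KO ones. The 7 T cell markers averaged 7.75, 7.82 and 7.79 in KO arrays and 8.09, 9.06 and 9.28 in WT arrays, and the 10 Langerhans and myeloid markers 6.93, 7.04 and 6.90 in KO arrays and 7.09, 7.81 and 8.13 in WT arrays, so WT array 1 was low there as well. Of the T cell markers 1 of 5 tested, Thy1, rose and 0 fell, and of 6 myeloid markers 0 were called. Lor was at -1.40 ± 0.55 in the KO (adjusted p = 0.544), Krt1 at -0.11 and Krt10 at -0.12. The mean of these 3 was 11.65, 11.48 and 11.21 in KO arrays and 11.55, 12.19 and 12.23 in WT arrays. The part of all these markers in the Hpgds, Aloxe3 and Alox12 values was not tested.

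**Figure D5:**
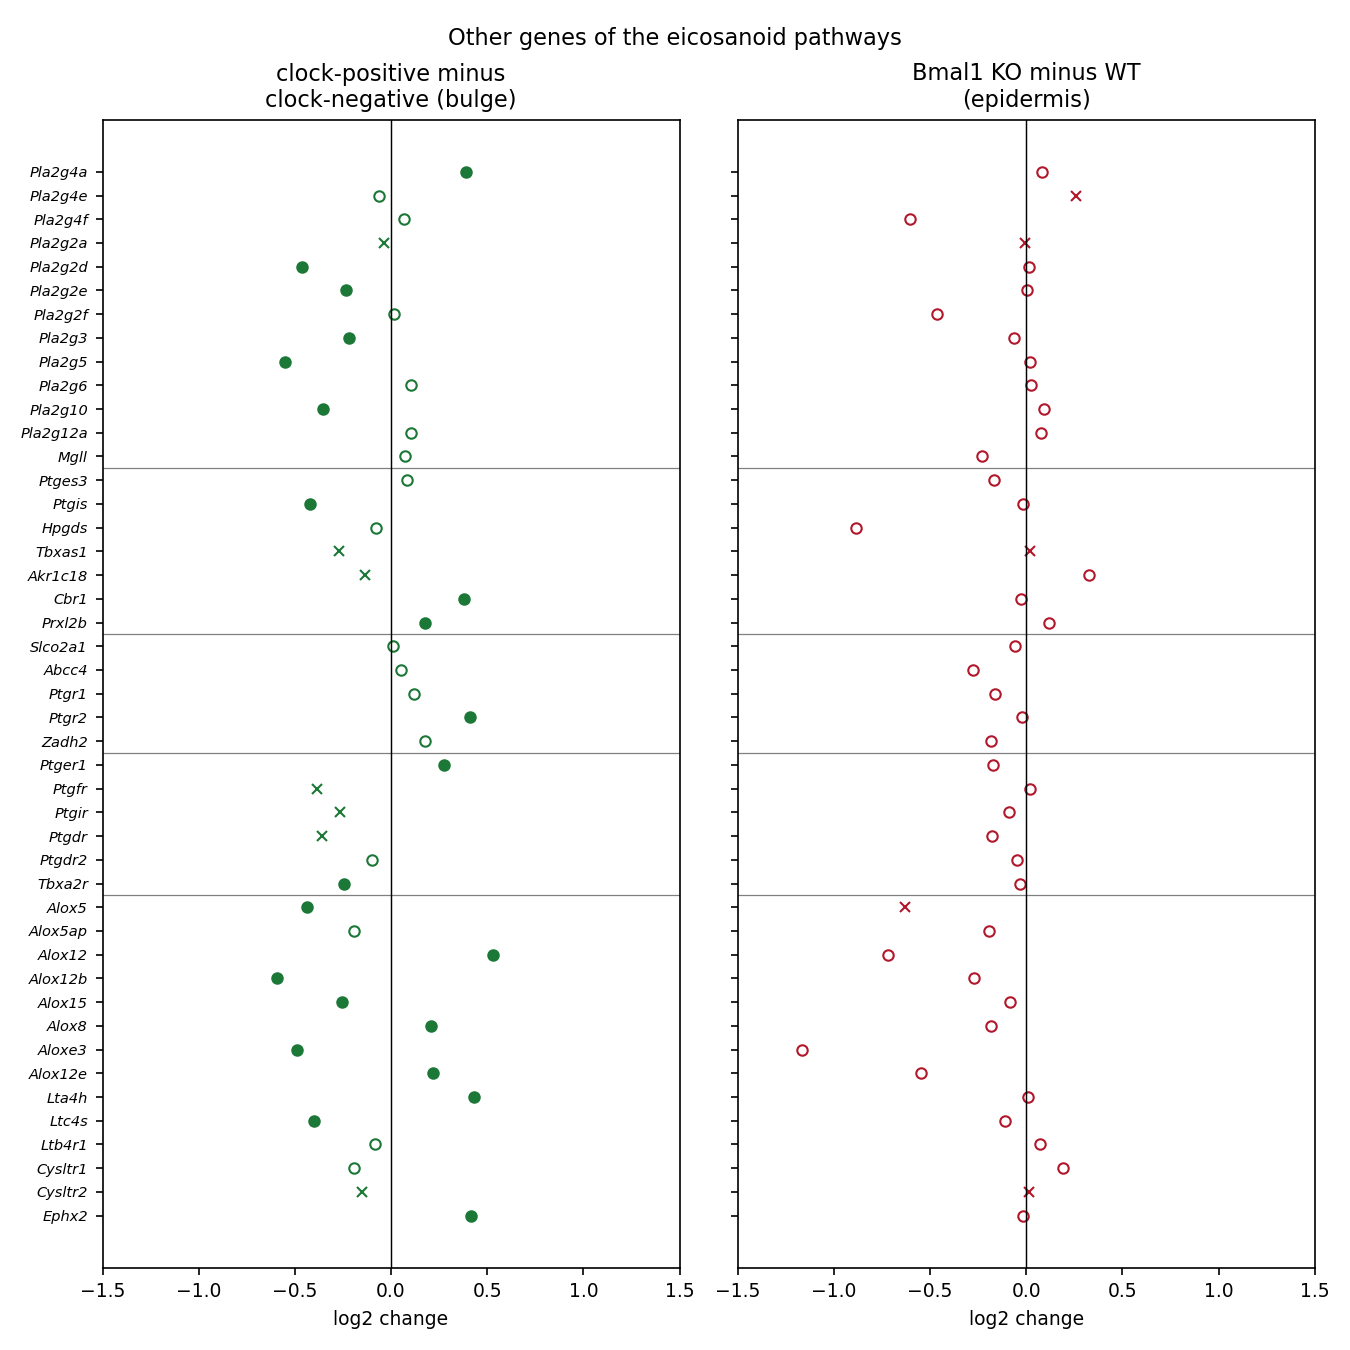
Log2 change of the 45 other measured eicosanoid genes, clock-positive minus clock-negative in the bulge (left) and Bmal1 KO minus WT in the epidermis (right), in blocks from phospholipases, other synthases, transport and breakdown, and other receptors down to lipoxygenases and leukotriene genes. Filled circles were called, open circles were not, and crosses were too dim to be tested. In the bulge 10 rises and 12 falls were called, beside 45.2% and 18.3% of all genes tested, and in the epidermis 0 were.

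Hpgd was higher with the brighter reporter in the bulge and also higher, without a call, where Bmal1 was deleted. The change with the brighter reporter in the bulge was compared with that of WT over KO in the epidermis. The test over all 12 arrays was clock-positive minus clock-negative less WT minus KO. For Hpgd that difference was 2.11 ± 0.21 (interval 1.65 to 2.57, adjusted p = 5.10e-05), and for Ptgs2 it was 0.62 ± 0.15 (interval 0.31 to 0.93, adjusted p = 0.0126). The other 4 members tested were not called, at -0.28 to 0.36, and of all genes 10.9% were called in the positive direction and 6.48% in the negative. The sets differ in tissue, age and pool size as well, and these cannot be told apart from the contrast.

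The genes most like Hpgd over all 12 arrays, each set centred on its mean, were Ism1, Dkk3 and Tgm5, at a root mean square difference of 0.16, 0.17 and 0.17 log2 units among 13099 genes searched. Ism1 changed by 1.48 in the bulge and 0.61 in the epidermis, Dkk3 by 1.30 and 0.38, and Tgm5, a transglutaminase, by 1.41 and 0.33. Dkk3 encodes a secreted protein of the Dickkopf family. The genes most like Ptgs2 were H4c8, Tuba8 and Serinc2, at 0.10 each, with changes of 0.08 and 0.62, 0.04 and 0.53, and 0.17 and 0.61 in the bulge and the epidermis.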

How the data were processed

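Gene expression was measured in 12 samples on Affymetrix whole-transcript arrays. Values deposited by the authors are log2 intensities. RMA is the tool that the submitters' processing notes name, and its version is not given in the sources used here; RNA was amplified as a whole transcriptome before labelling, per the labels' protocols. RMA usually includes a quantile step over all probes. The bulge values still changed when quantile normalized here, but that was done on a single probe set per gene. That change therefore cannot show how the deposited values were normalized, and which arrays were normalized together is not known. Of 35512 probe sets, the 21789 with a single symbol were kept, and 1621 with several symbols and 12102 with no listed gene were dropped. The Entrez identifiers of 21698 matched RefSeq (GRCm38.p6). For 999 genes with several probe sets, the one filled on all 12 arrays and then the brightest was used.

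Each comparison was fitted on its own 6 arrays with limma 3.58.1 (lmFit and eBayes, two-sided) in R 4.3.3, after leaving out the 30% dimmest genes, with Benjamini-Hochberg adjustment over all genes tested; the difference of contrasts used all 12 arrays. A ± gives the fit's standard error, or an SD where so marked. An array has no read depth, so the number of arrays limits the precision. Samples are separate pools per the labels, 3 per group. The fit was checked on simulated data. There the noise was independent between genes and few genes changed, so that check does not cover shifts shared by many genes. Alternatives were 2 other filters, 3 scalings, leaving out arrays, a replicate block, an intensity trend, single probe sets and 1 shared spread. The members and lists were chosen with earlier results of these data known, and list genes were named by rule: up to 4 called per direction with the smallest p, and for members changed 1.5-fold the 3 most alike genes. Nr1d1, the other clock genes and outputs, Hpgds, Aloxe3, Alox12, Ptgr2, Slco2a1 and the marker genes were named after their values were seen where that rule does not cover them. The sample numbers shared between groups are not stated to pair samples.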

Additional observations from a re-analysis of the deposited data

Results flagged for a closer look

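Hpgd and Ptgs2 were picked out because their change differed between the bulge and the epidermis, tested as clock-positive minus clock-negative less WT minus KO. The difference was 2.11 ± 0.21 for Hpgd (adjusted p = 5.10e-05) and 0.62 ± 0.15 for Ptgs2 (adjusted p = 0.0126). Of all genes tested 17.4% were called for this difference, 10.9% in the positive direction. Hpgd was higher in 3 of 3 clock-positive arrays than in any clock-negative array, and in 3 of 3 KO arrays than in any WT array. For Ptgs2 the bulge groups overlapped and 3 of 3 KO arrays were above any WT array. Of all genes measured 35.9% were higher without overlap in clock-positive arrays, and 4.33% in KO arrays. In the epidermis comparison alone neither Hpgd nor Ptgs2 was called in limma (adjusted p = 0.40 and 0.141).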

How the results depend on the processing

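The rise of Hpgd in the bulge kept its call under every alternative tried, at 1.31 to 1.66, and so did its difference between the sets. Of 339 values for single members, alternatives included, 271 kept direction and call, 11 lost and 4 gained a call, and 29 changed sign. None of the 29 belonged to a gene called with the main settings, the largest such change being 0.21, and 2 were past the threshold (Ptger4 in the bulge). Where no cause follows from the setting itself, the cause was not tested.

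In the bulge 5362 genes were called after quantile normalization, 5678 after cyclic loess and 5301 with all 12 arrays in 1 fit, against 8866, and 7132 to 9805 without any 1 array. Higher and lower calls split as 6311 and 2555, against 6285 and 5564 with no filter, 5947 and 740 with 50% of genes left out, 2639 and 2723 after quantile normalization and 2862 and 2816 after cyclic loess. Members called higher were 1 with 50% left out and 1 with all 12 arrays, against 2, and 1 to 2 without any 1 array. Members called lower were 3 with no filter, 2 after quantile normalization, 2 after cyclic loess and 0 with all 12 arrays, against 1, and 0 to 1 without any 1 array. Of the pathway list 4, 5 and 6 were called higher after quantile normalization, cyclic loess and with all 12 arrays, against 10 (7 to 11 without any 1 array), and 2 and 7 lower with 50% left out and with all 12 arrays, against 12 (9 to 11).

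In the epidermis 16 genes were called with no filter, 47 with 50% left out, 82 after median centring, 91 after quantile normalization, 87 after cyclic loess, 57 with an intensity trend, 407 with all 12 arrays and 1343 without both arrays numbered 1, against 27, and 7 to 98 without any 1 array (98 without WT array 1). Ptgs2 was the 1 member called higher after median centring, after quantile normalization, with all 12 arrays and without both arrays numbered 1. Pathway genes called lower were 3 with all 12 arrays and 11 without both arrays, against 0, and 0 to 3 without any 1 array. The difference between the sets was called for 1595 genes with 50% left out and 3724 after median centring, against 2422, and 1189 to 4208 without any 1 array.

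Signs turned as follows. In the bulge Ptger4 was -0.00403 after median centring, -0.247 after quantile normalization and -0.238 after cyclic loess, and -0.0239 to 0.0272 without any 1 array. Ptgs2 was -0.0692 and -0.0469 after quantile normalization and cyclic loess, and -0.0265 to 0.0948 without any 1 array. Ptges was -0.142 and -0.136 under the same pair of scalings. In the epidermis Ptgds was 0.0294 after median centring, 0.0247 after quantile normalization, 0.00834 after cyclic loess and 0.0781 without both arrays numbered 1, and -0.0937 to 0.0920 without any 1 array. Ptger4 was 0.0177 after median centring and -0.147 to 0.0559 without any 1 array. Ptges2 was -0.119 without both arrays numbered 1 and -0.0404 to 0.234 without any 1 array, and Ptges was -0.106 without both. Ptger2 was 0.0249 with no filter and median centring. The difference between the sets for Ptger4 was 0.0136 after median centring and -0.142 to 0.0613 without any 1 array.

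With the replicate number as a block, 9351 genes were called in the bulge, 3 in the epidermis and 687 for the difference, where 1 member, Hpgd, stayed called (adjusted p = 0.00450) and Ptgs2 did not (0.0591). Same-numbered samples deviated together with r of -0.0610 to 0.260 in the bulge and -0.525 to 0.0427 in the epidermis. For samples with different numbers r was -0.325 to 0.126 and -0.312 to 0.538. With 3 arrays per group these values cannot decide whether samples are paired. No background level was measured, and Ptger2 and Ptger3 are known only to be dim among the genes.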
